A study of Oryza sativa with 51 samples.

Results

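Flag leaves of the rice line SE21s were compared with those of MH86 at the 5 sampling times around dawn. The members are the 10 libraries at Zeitgeber time (ZT, hours from ZT0) 0, 21, 24, 45 and 48 from SE21s and from MH86, paired by hour, out of 51 libraries in all. The study followed the super-hybrid LY2186 and its parental lines over 17 times at 3 h intervals, with 1 library per line and time, and asked how daily gene expression differs among them. SE21s is the male-sterile parent and MH86 the restorer parent. ZT0 stands for dawn, so that ZT21 and ZT45 lie 3 h before it. Both lines stood in the field at grain filling under shared conditions, and no treatment or introduced gene is named for either line. The labels do not give the hour of sunrise, whether SE21s panicles held filling grain, or whether the libraries of a line came from separate plants. The 5 hours stand in for replicates of a line. The p-values thus rest on how far the line difference scatters between these hours in the 10 libraries. That scatter holds any change of the difference with time, and the rest of it may be technical. It does not measure the spread between plants.

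The plant clock is a loop of transcription factors that repress one another in turn through the day. The MYB factor LHY acts in the early morning, the pseudo-response regulators (PRR) follow through the day, and the evening complex of ELF3 and LUX acts at night. The clock and light together set the daily wave of mRNA for the light-harvesting antenna, chlorophyll synthesis and carbon fixation, which builds toward the light period. The flag leaf is the last leaf before the panicle and the main source of sugar for the grain.

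The authors deposited FPKM, the fragments of a gene per kilobase of its length, scaled to the fragments of the library, and the depth behind each value is unknown. From the steps between low values, the deepest of the 10 libraries had roughly 1.78 times the depth of the shallowest. The number of genes at 1 FPKM or more was 15549 to 16246 per library. The 3 most abundant loci of the table (LOC_Os06g47230, LOC_Os02g27769 and LOC_Os04g32710) took 32.2% to 58.1% of the summed FPKM in SE21s and 43.4% to 51.4% in MH86. Of the leaf markers, the Rubisco small subunit genes were high in both lines. RBCS3 had 12422 to 22715 FPKM in SE21s, against 5754 to 7332 FPKM in MH86, and RBCS2 3392 to 5215 FPKM, against 430 to 1542 FPKM. The antenna markers CAB1R and LHCB2 had 37.6 to 397 and 63.1 to 1212 FPKM in SE21s. In MH86 they were low at these hours, with 0.0599 to 8.07 and 0.632 to 5.17 FPKM. The last marker, RCA, is given below. Grain markers were near 0, summing over 6 genes to 1.96 to 2.78 FPKM in SE21s and 2.04 to 3.56 FPKM in MH86, with 3 of them (GLB1, RAG2 and RPBF) at 0 in all 10 libraries. The 9 floral organ markers summed to 15.7 to 41.9 FPKM in SE21s and 17.3 to 20.9 FPKM in MH86, with 3 at 0 throughout (MADS6, MADS7 and MADS13). Most of that sum was MADS16 (LOC_Os06g49840), a petal and stamen identity gene, with 25.1, 10.99, 23.8, 28.3 and 37.1 FPKM in SE21s, against 15.1, 11.6, 13.2, 12.1 and 14.7 FPKM in MH86. Of the 3 floral markers tested, MADS16 (log2 difference 0.79 ± 0.20 SE, adjusted p = 0.011) and MADS3 (0.76 ± 0.16, adjusted p = 0.0048; LOC_Os01g10504) were higher and MADS2 (-0.62 ± 0.12, adjusted p = 0.0031; LOC_Os01g66030) was lower. Of the 2 grain markers tested, GluA1 (LOC_Os01g55690), a seed storage glutelin, was lower (-0.81 ± 0.20, adjusted p = 0.011). The part of such tissue in the differences below was not tested. In bulk leaves, fewer cells of a type and less RNA per cell cannot be told apart.

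The 29 gene lists hold 273 genes, of which 269 are in the table, and 233 passed the filter of a mean of 1 FPKM over all 51 libraries while 36 did not. Over the 5 hours, limma with time as a block and Benjamini-Hochberg adjustment called 10110 of the 16842 genes tested at an adjusted p under 0.05 (60.0%). Of these, 4323 were higher in SE21s (25.7% of genes tested) and 5787 lower (34.4%), with a median log2 difference of -0.11 over all genes. When libraries were rescaled without the 3 most abundant loci, the median moved to -0.35 and the share of called genes that were higher moved to 26.6%, against 42.8% on the deposited scale. At least 2-fold, 1891 genes were called higher (11.2%) and 1793 lower (10.6%), and at least 4-fold 616 and 565 (3.66% and 3.35%). All 5 SE21s values lay above all 5 MH86 values in 2281 genes (13.5%) and below them in 3212 (19.1%). At single hours 22.0% (ZT0), 31.8% (ZT21), 23.2% (ZT24), 24.8% (ZT45) and 24.7% (ZT48) of genes were at least 2-fold apart. The largest share, at ZT21, rests on 1 library per line and was not matched at ZT45. The SE21s library of ZT21 had the fewest genes at 1 FPKM or more (15549) and the lowest median-ratio scaling factor (0.906) of the 10. The root mean square log2 difference between the lines at one hour was 1.18 to 1.36, while libraries of the same line at ZT0, ZT24 and ZT48 were 0.59 to 0.64 apart in SE21s and 0.51 to 0.60 in MH86.

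Most genes of photosynthesis were higher in SE21s than in MH86 at each of these hours. Antenna genes, which encode the light-harvesting chlorophyll proteins of both photosystems, stood farthest apart, with 13 of 13 tested higher in SE21s and a median log2 difference of 5.76. So did 15 of 16 genes of the photosystem core and electron transport (median 2.36), 13 of 14 of carbon fixation (1.58) and 13 of 13 of chlorophyll synthesis (2.19), against 25.7% of all genes and a median of -0.11. None of these lists held a gene called lower, and the genes called higher in them had no overlap between the lines in any case. These counts of higher genes were the same under each of the 3 scalings tried, although without the 3 most abundant loci 1 photosystem gene was called lower.

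**Figure D1:**
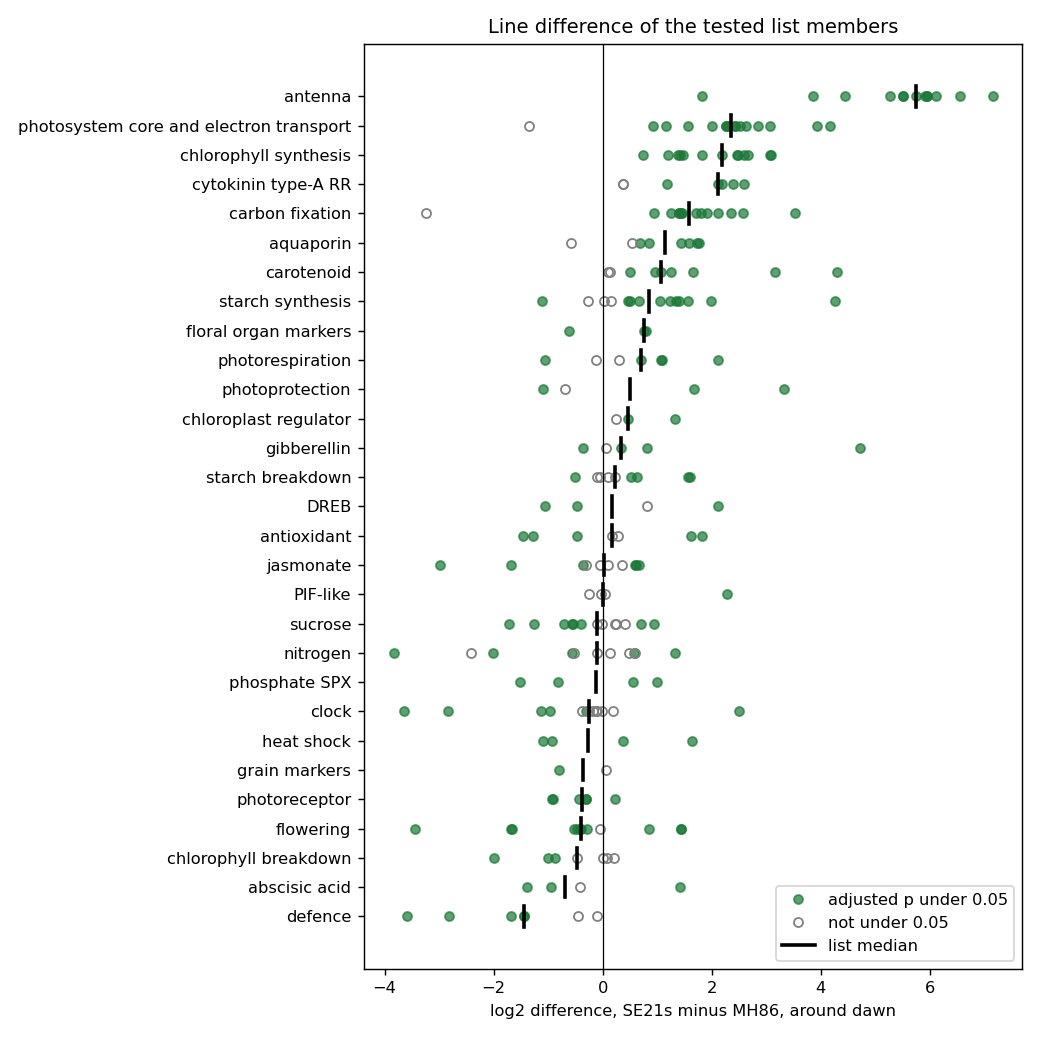
Log2 difference (SE21s minus MH86, x axis) of each tested member of 29 gene lists, ordered by list median (black bars); filled points passed the adjusted p of 0.05 and open points did not. All 13 antenna points lie right of 0, between 1.82 and 7.15, and defence has the lowest list median, -1.45.

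LHCB5 (LOC_Os11g13890), a minor antenna protein of photosystem II, had 965, 224, 688, 218 and 788 FPKM in SE21s leaves at ZT0, ZT21, ZT24, ZT45 and ZT48, against 19.02, 1.03, 9.79, 0.647 and 9.60 FPKM in MH86 leaves. The SE21s values were all above those of MH86, and in both lines the ZT21 and ZT45 values were the lowest (log2 difference 6.55 ± 0.29 SE, adjusted p = 7.1e-06). CAB1R (LOC_Os09g17740), a major photosystem II antenna gene, had 397, 76.8, 271, 37.6 and 249.6 FPKM in SE21s, against 8.07, 0.790, 3.11, 0.0599 and 3.43 FPKM in MH86 (log2 difference 5.95 ± 0.11 SE, adjusted p = 1.4e-07). LHCA1 (LOC_Os06g21590), of the photosystem I antenna, had 539, 395, 376, 212 and 349 FPKM in SE21s, against 12.3, 4.76, 11.4, 1.34 and 3.96 FPKM in MH86 (5.95 ± 0.27, adjusted p = 7.3e-06). All 3 were lowest in both lines at ZT45, when SE21s still held 37.6 FPKM or more of each. The other 10 members ranged from a log2 difference of 1.82 for LHCA5 (LOC_Os02g52650) to 7.15 for LHCB2 (LOC_Os03g39610), the ends of the list, of which LHCA5 was chosen after its values were seen. Antenna genes are near copies of one another, and how the authors split shared fragments among them is not given in the sources used here.

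Among photosystem genes, PSAH (LOC_Os05g48630), a photosystem I subunit, had 1593, 1076, 531, 289.6 and 446 FPKM in SE21s, against 97.5, 48.4, 52.7, 20.8 and 25.8 FPKM in MH86 (log2 difference 3.93 ± 0.16 SE, adjusted p = 4e-06). PSAD (LOC_Os08g44680), which docks ferredoxin on photosystem I, had 1043 to 2613 FPKM in SE21s, against 156 to 481 FPKM in MH86 (2.64 ± 0.13, adjusted p = 7.6e-06), and PSBP (LOC_Os07g04840), of the oxygen-evolving complex, had 1536 to 2804 FPKM in SE21s, against 296 to 636 FPKM in MH86 (2.26 ± 0.11, adjusted p = 8.1e-06). The lowest SE21s value was above the highest MH86 value for each. The 1 exception in this list, PSBR (LOC_Os07g05360), was chosen after its values were seen and had 29.4, 2.28, 23.5, 0.461 and 15.9 FPKM in SE21s, against 20.1, 7.75, 49.98, 9.05 and 40.5 FPKM in MH86 (-1.35 ± 0.49, adjusted p = 0.053), with overlapping groups.

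In carbon fixation, GAPA (LOC_Os04g38600), a subunit of chloroplast glyceraldehyde phosphate dehydrogenase, had 1438, 775, 817, 419 and 886 FPKM in SE21s, against 147, 55.8, 75.2, 34.5 and 73.3 FPKM in MH86 (log2 difference 3.53 ± 0.11 SE, adjusted p = 9.7e-07). Its partner GAPB (LOC_Os03g03720) had 198 to 325 FPKM in SE21s, against 49.8 to 89.1 FPKM in MH86 (2.12 ± 0.10, adjusted p = 7.7e-06), and the chloroplast phosphoglycerate kinase gene PGK (LOC_Os05g41640) had 465 to 529 FPKM in SE21s, against 68.1 to 95.9 FPKM in MH86 (2.58 ± 0.11, adjusted p = 4.3e-06). PGK varied little within each line across the 5 hours, and the SE21s level was 5.17 to 7.43 times that of MH86. The 1 exception was the Rubisco activase gene RCA (LOC_Os11g47970), a leaf marker chosen here after its values were seen, which had 24021, 11342, 0, 11509 and 0 FPKM in SE21s, against 6441, 525, 4698, 563 and 6618 FPKM in MH86. An exact 0 between values of that size may be a failed estimate, and the direction turns on these 2 values. The log2 difference was -3.24 as deposited, which was not called (adjusted p = 0.46, limma), and 3.56 ± 0.55 SE with the zeros left out (adjusted p = 0.0036).

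Chlorophyll synthesis genes were higher from the entry of the pathway to its later steps. HEMA1 (LOC_Os10g35840), glutamyl-tRNA reductase at the entry of the pathway, had 394, 266, 345, 302 and 376 FPKM in SE21s, against 76.8, 49.9, 65.3, 48.6 and 65.1 FPKM in MH86 (log2 difference 2.46 ± 0.09 SE, adjusted p = 2.1e-06). PORB (LOC_Os10g35370), the light-driven protochlorophyllide oxidoreductase, had 332 to 579 FPKM in SE21s, against 36.2 to 109.7 FPKM in MH86 (2.67 ± 0.16, adjusted p = 1.8e-05). CHLM (LOC_Os06g04150), a methyltransferase of the magnesium branch, was a low gene with 6.56 to 16.4 FPKM in SE21s, against 0.522 to 1.66 FPKM in MH86 (2.59 ± 0.17, adjusted p = 2.6e-05). Each of these 3 was higher in SE21s at 5 of 5 hours without overlap. Of 9 carotenoid and plastid isoprenoid genes, 7 were higher and none lower (median 1.07), against 25.7% and 34.4% of all genes. Without the 3 most abundant loci 6 were higher. DXS (LOC_Os05g33840), the entry enzyme of plastid isoprenoid synthesis, had 242, 155, 164, 147 and 183 FPKM in SE21s, against 20.99, 6.51, 12.6, 2.75 and 8.16 FPKM in MH86 (log2 difference 4.31 ± 0.28 SE, adjusted p = 4e-05). The phytoene synthase gene PSY1 (LOC_Os06g51290) and the cyclase gene LCYB (LOC_Os02g09750) were higher too, with log2 differences of 1.26 and 1.66.

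Of 4 photoprotection genes 2 were higher and 1 lower, or 2 and 2 without the 3 most abundant loci. Among all genes 25.7% were higher and 34.4% lower. PSBS1 (LOC_Os01g64960), the sensor of thermal dissipation, had 17.3 to 61.1 FPKM in SE21s, against 1.38 to 4.55 FPKM in MH86 (3.33 ± 0.24, adjusted p = 5.2e-05), and ZEP (LOC_Os04g37619), which makes violaxanthin, had 11.99 to 38.3 FPKM in SE21s, against 2.82 to 10.3 FPKM in MH86 (1.68 ± 0.19, adjusted p = 0.00032). VDE (LOC_Os04g31040), which turns violaxanthin to zeaxanthin in strong light, was lower, with 46.04, 66.7, 37.3, 76.9 and 47.3 FPKM in SE21s, against 119, 130.4, 95.5, 115 and 112 FPKM in MH86 (-1.10 ± 0.13, adjusted p = 0.00045). The 2 enzymes of the cycle thus lay on opposite sides, and neither overlapped between the lines. Of 7 photorespiration genes, 4 were higher and 1 lower, or 3 and 2 in that scaling. PGLP1 (LOC_Os04g41340), phosphoglycolate phosphatase, differed most among the higher (2.12 ± 0.11, adjusted p = 1e-05), followed by SHM1 (LOC_Os03g52840, 1.09) and GLDH (LOC_Os10g37180, 1.06), both of the glycine step. The aminotransferase gene SGAT (LOC_Os08g39300) was lower, with 2937 to 5702 FPKM in SE21s, against 7531 to 9037 FPKM in MH86 (-1.06 ± 0.21, adjusted p = 0.0038).

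Of the regulators of chloroplast genes, GLK1 (LOC_Os06g24070), a transcription factor for antenna and chlorophyll genes, had 331, 279, 348, 296 and 424 FPKM in SE21s, against 207, 63.3, 186, 75.9 and 212 FPKM in MH86 (log2 difference 1.33 ± 0.24 SE, adjusted p = 0.0028). The lines were nearest at ZT0 and farthest apart at ZT21. The GATA factor Cga1 (LOC_Os02g12790) was higher by a smaller step (0.46 ± 0.13, adjusted p = 0.02), a call that ended without ZT24 (adjusted p = 0.062) and in the scaling without the 3 most abundant loci (adjusted p = 0.18). Of 4 phytochrome-interacting-factor-like genes 1 was called, against 60.0% of all genes. PIL13 (LOC_Os03g56950) had 90.8, 27.9, 70.1, 28.2 and 118 FPKM in SE21s, against 18.6, 8.16, 13.7, 6.12 and 14.5 FPKM in MH86 (log2 difference 2.27 ± 0.17 SE, adjusted p = 5.1e-05), higher in SE21s at each hour.

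The clock genes differed in both directions, with 1 of 13 tested higher and 5 lower in SE21s, or 1 and 8 without the 3 most abundant loci. Over all genes 25.7% were higher and 34.4% lower, so the share of lower clock genes is near that of all genes. LHY (LOC_Os08g06110) had 3487, 1692, 3183, 1773 and 4175 FPKM in SE21s leaves at ZT0, ZT21, ZT24, ZT45 and ZT48, against 1785, 55.02, 1281, 92.5 and 2040.2 FPKM in MH86 leaves. At ZT21 and ZT45 the SE21s level was 30.8 and 19.2 times that of MH86, while at ZT0, ZT24 and ZT48 it was 1.95, 2.49 and 2.05 times (log2 difference 2.50 ± 0.69 SE, adjusted p = 0.02). The SE21s libraries at ZT21 and ZT45 thus already held about the LHY level that MH86 reached at ZT0 and ZT48. In all 3 lines the highest LHY value was at ZT48, and the 3 highest SE21s values were those of ZT48, ZT0 and ZT24.

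**Figure D2:**
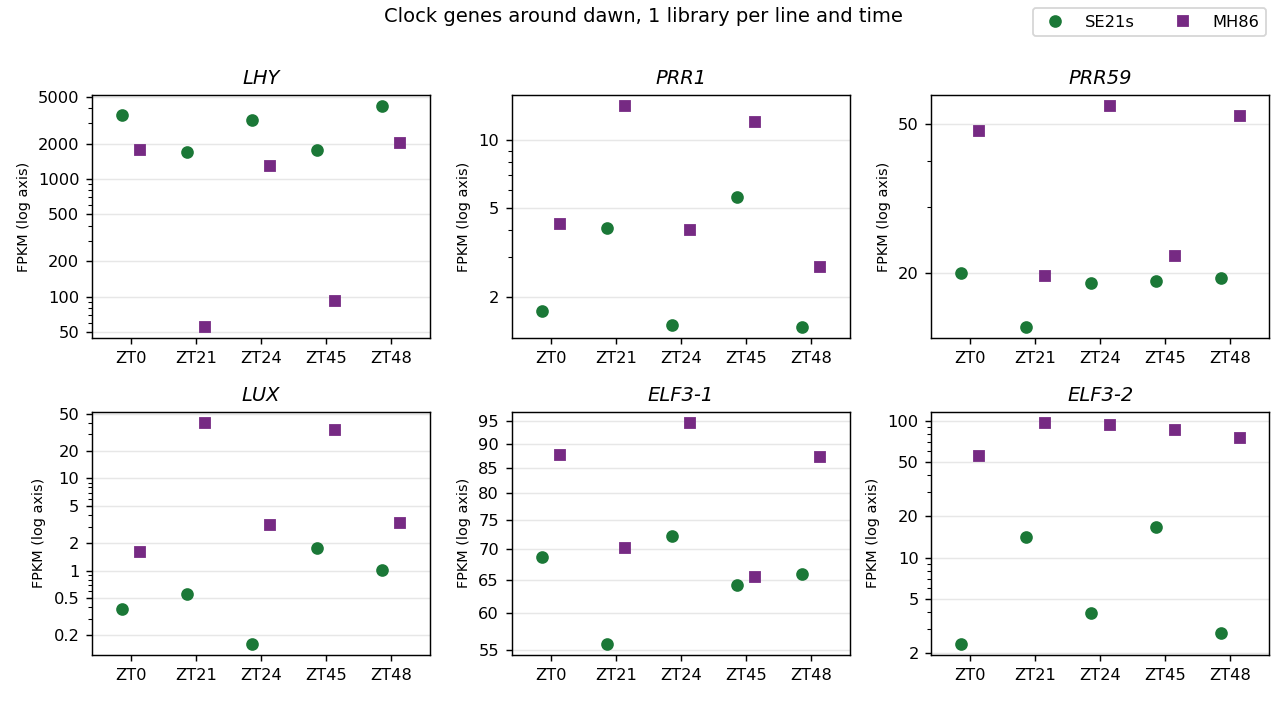
FPKM (log axes) of the 6 clock genes called, in each library at the 5 hours, with SE21s as green circles left of MH86 as purple squares. At ZT21 and ZT45 LHY is at 1692 and 1773 FPKM in SE21s and at 55.02 and 92.5 FPKM in MH86, and ELF3-2 of SE21s stays below all MH86 values.

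ELF3-2 (LOC_Os01g38530), a scaffold of the evening complex, had 2.35, 14.2, 3.94, 16.7 and 2.83 FPKM in SE21s, against 55.5, 96.4, 92.7, 85.6 and 74.7 FPKM in MH86 (log2 difference -3.65 ± 0.37 SE, adjusted p = 0.00032), with no overlap. LUX (LOC_Os01g74020), the DNA-binding member of that complex, had 0.388, 0.559, 0.160, 1.77 and 1.02 FPKM in SE21s, against 1.58, 40.1, 3.13, 33.4 and 3.27 FPKM in MH86 (log2 difference -2.83 ± 0.62 SE, adjusted p = 0.0083). MH86 was high in LUX at ZT21 and ZT45 only, and SE21s was at or under 1.77 FPKM throughout. PRR1 (LOC_Os02g40510), the TOC1 homologue, had 1.73, 4.08, 1.503, 5.59 and 1.47 FPKM in SE21s, against 4.24, 14.2, 3.97, 12.1 and 2.71 FPKM in MH86 (log2 difference -1.14 ± 0.16 SE, adjusted p = 0.00077). It was higher at ZT21 and ZT45 than at the other hours in both lines, and lower in SE21s at 5 of 5 hours.

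PRR59 (LOC_Os11g05930) had 20, 14.4, 18.9, 19.1 and 19.4 FPKM in SE21s, against 47.9, 19.6, 55.9, 22.2 and 52.5 FPKM in MH86 (log2 difference -0.97 ± 0.21 SE, adjusted p = 0.0072). MH86 was high at ZT0, ZT24 and ZT48 and low at ZT21 and ZT45, while SE21s was lowest at ZT21 and held 18.9 to 20 FPKM at the other hours. ELF3-1 (LOC_Os06g05060), the second ELF3 copy, was slightly lower (-0.30 ± 0.09, adjusted p = 0.025), and that call ended without ZT0, ZT24 or ZT48 (adjusted p = 0.081 to 0.088). The ELF3-1 call also ended by limma in median-ratio scaling (adjusted p = 0.08). With time left out of the model, LHY (adjusted p = 0.06), PRR1 (0.076) and ELF3-1 (0.095) missed the threshold in limma. The other 7 did not pass. GI (LOC_Os01g08700) and FKF1 (LOC_Os11g34460), which act in the evening, were under 1 FPKM in both lines (-0.37 ± 0.16, adjusted p = 0.08 for GI, adjusted p = 0.37 for FKF1), with the SE21s value below that of MH86 at 5 of 5 hours in both. The day-phase genes PRR37 (LOC_Os07g49460) and PRR73 (LOC_Os03g17570) were under 0.3 FPKM in all 10 libraries, with log2 differences of -0.004 and 0.19. PRR95 (LOC_Os09g36220) had 0.692 to 4.47 FPKM in SE21s, against 0.496 to 6.39 FPKM in MH86 (-0.25 ± 0.19, adjusted p = 0.29), and the ZTL-like genes LOC_Os06g47890 and LOC_Os02g05700 differed by -0.13 and -0.10.

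Of 12 flowering genes, 3 were higher and 8 lower in SE21s, or 3 and 9 without the 3 most abundant loci. The shares over all genes were 25.7% and 34.4%. Ehd1 (LOC_Os10g32600), a response regulator that activates the florigen genes, had 0.122, 0.211, 0.142, 0 and 0.0908 FPKM in SE21s leaves at ZT0, ZT21, ZT24, ZT45 and ZT48, against 6.21, 3.31, 8.20, 4.58 and 10.9 FPKM in MH86 leaves. The MH86 values were all above 3 FPKM and those of SE21s all under 0.3 FPKM (log2 difference -3.45 ± 0.26 SE, adjusted p = 5.1e-05). The florigen gene Hd3a (LOC_Os06g06320), chosen after its values were seen, had 7.83, 8.45, 8.76, 18.3 and 26.03 FPKM in SE21s, against 60.6, 22.7, 37.995, 28.3 and 69.8 FPKM in MH86 (-1.67 ± 0.30, adjusted p = 0.0032). MADS15 (LOC_Os07g01820), an AP1-like gene, was lower with 34.2 to 112 FPKM in SE21s, against 152 to 313 FPKM in MH86 (-1.68 ± 0.18, adjusted p = 0.00028), and MADS50 (LOC_Os03g03070), a SOC1-like activator of flowering, was higher with 15.3 to 28.3 FPKM in SE21s, against 8.77 to 13.1 FPKM in MH86 (0.86 ± 0.12, adjusted p = 0.001).

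Photoreceptor genes were lower by small steps, with 5 of 6 lower and 1 higher, against 34.4% and 25.7% of all genes. PHYC (LOC_Os03g54084), a phytochrome, had 27.1, 27.9, 28.7, 33.8 and 28.6 FPKM in SE21s, against 54.7, 56.3, 57.7, 55.9 and 53.4 FPKM in MH86 (log2 difference -0.92 ± 0.08 SE, adjusted p = 0.0001). CRY2 (LOC_Os02g41550), a blue light receptor, had 7.92 to 17.6 FPKM in SE21s, against 19.4 to 25.2 FPKM in MH86 (-0.91 ± 0.18, adjusted p = 0.004), and PHYB (LOC_Os03g19590) differed by -0.31. No value of SE21s reached one of MH86 in these 3 genes. Without the 3 most abundant loci in the scaling, 5 were lower and none higher.

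**Figure D3:**
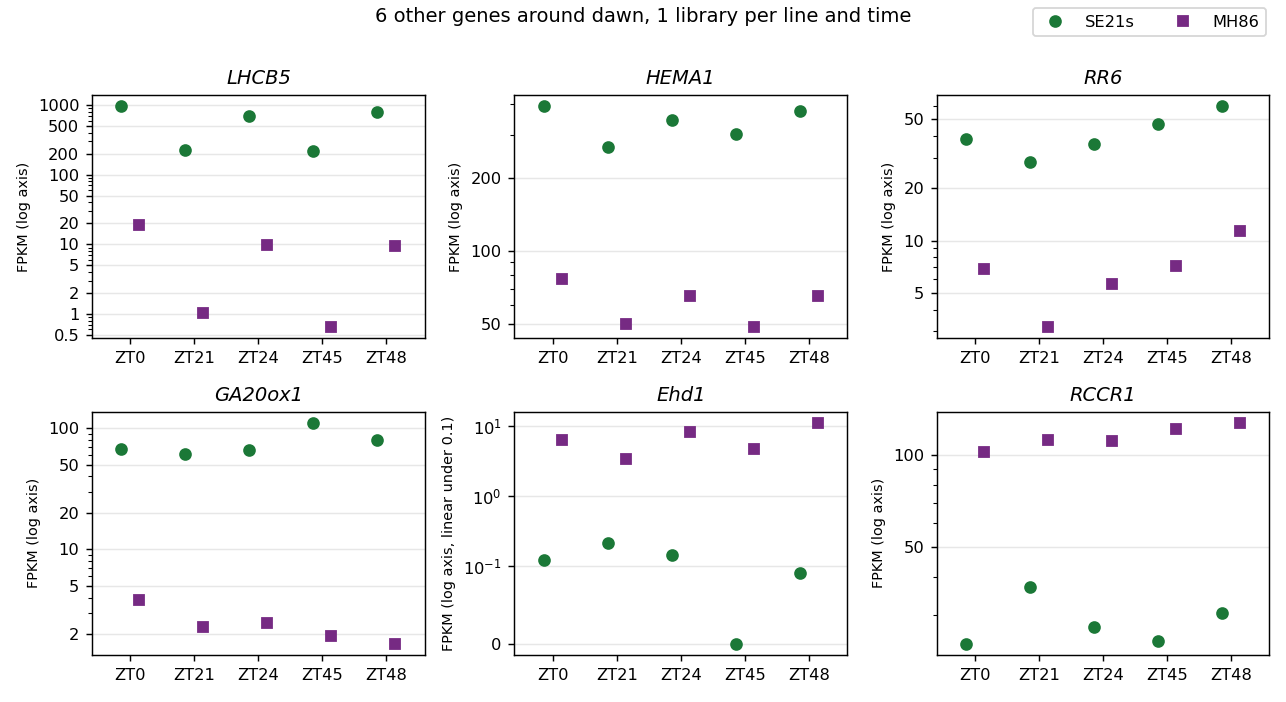
FPKM (log axes; linear under 0.1 for Ehd1) of 6 genes from other lists in each library at the 5 hours, with SE21s as green circles left of MH86 as purple squares. The 2 lines do not overlap in any panel: LHCB5, HEMA1, RR6 and GA20ox1 are higher in SE21s, and Ehd1 and RCCR1 are lower.

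Chlorophyll breakdown held 3 lower genes of 7 and none higher, a share of lower genes near the 34.4% of all genes. RCCR1 (LOC_Os10g25030), red chlorophyll catabolite reductase, had 24.1, 37.2, 27.3, 24.6 and 30.5 FPKM in SE21s, against 102, 112, 111, 122 and 128 FPKM in MH86 (log2 difference -1.997 ± 0.11 SE, adjusted p = 1.4e-05). NYC1 (LOC_Os01g12710), a chlorophyll b reductase, had 30.7 to 42.2 FPKM in SE21s, against 64.8 to 84.9 FPKM in MH86 (-1.003 ± 0.09, adjusted p = 9.7e-05), and NYC3 (LOC_Os06g24730), a plastid hydrolase of senescence, differed by -0.87. The SE21s groups lay below MH86 for RCCR1 and NYC1 and overlapped for NYC3.

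Starch synthesis genes were mostly higher, with 10 of 14 higher and 1 lower (median 0.86), against 25.7% and 34.4% of all genes. SSI (LOC_Os06g06560), a soluble starch synthase, had 32.6, 18.2, 30.003, 14.2 and 46.01 FPKM in SE21s, against 5.92, 6.38, 6.65, 4.78 and 7.37 FPKM in MH86 (log2 difference 1.99 ± 0.19 SE, adjusted p = 0.00015). AGPS2 (LOC_Os08g25734) and AGPL3 (LOC_Os03g52460), subunits of ADP-glucose pyrophosphorylase, were higher too. AGPS2 had 49.2 to 63.8 FPKM in SE21s, against 21.9 to 26.5 FPKM in MH86 (1.23 ± 0.08, adjusted p = 2.3e-05), and AGPL3 had 106 to 176 FPKM in SE21s, against 40.2 to 61.7 FPKM in MH86 (1.34 ± 0.11, adjusted p = 8.5e-05). SSIVb (LOC_Os05g45720) was the 1 lower gene, with 8.67 to 13.7 FPKM in SE21s, against 18.8 to 27.3 FPKM in MH86 (-1.12 ± 0.12, adjusted p = 0.00026). Starch breakdown had 4 higher and 1 lower among 9 genes. MEX1 (LOC_Os04g51330), the maltose exporter of the plastid, had 20.7 to 27.3 FPKM in SE21s, against 6.63 to 8.93 FPKM in MH86 (1.57 ± 0.08, adjusted p = 1.2e-05), the phosphorylase gene PHOH (LOC_Os01g63270) had 45.4 to 66.3 FPKM in SE21s, against 15.8 to 19.9 FPKM in MH86 (1.60 ± 0.11, adjusted p = 4.3e-05), and the debranching gene ISA3 (LOC_Os09g29404) differed by 0.62. Without the 3 most abundant loci the split was 8 against 2 in synthesis and 3 against 2 in breakdown.

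Of 13 sucrose genes, 2 were higher and 6 lower, against 25.7% and 34.4% of all genes. SUS4 (LOC_Os03g22120), a sucrose synthase, had 14.2, 19.5, 13.2, 22.8 and 10.1 FPKM in SE21s, against 47.4, 63.8, 37.6, 74.2 and 42.97 FPKM in MH86 (log2 difference -1.72 ± 0.10 SE, adjusted p = 1.4e-05), and SUS1 (LOC_Os03g28330) was low in both lines with 0.189 to 0.427 FPKM in SE21s, against 0.854 to 1.88 FPKM in MH86 (-1.26 ± 0.18, adjusted p = 0.00097). The sucrose phosphate synthase gene SPS11 (LOC_Os11g12810) was higher, with 11.7 to 16.6 FPKM in SE21s, against 5.36 to 8.43 FPKM in MH86 (0.94 ± 0.10, adjusted p = 0.00025). None of these 3 overlapped between the lines. In median-ratio scaling 5 sucrose genes were higher and 6 lower.

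Of 11 nitrogen assimilation genes 2 were higher and 3 lower, or 1 and 3 without the 3 most abundant loci. Both shares are below the 25.7% and 34.4% of all genes. The plastid glutamine synthetase gene GS2 (LOC_Os04g56400) had 851 to 1519 FPKM in SE21s, against 328 to 618 FPKM in MH86 (1.33 ± 0.15, adjusted p = 0.00036). NADH-GOGAT1 (LOC_Os01g48960), a glutamate synthase, was lower with 7.87, 4.76, 8.34, 7.60 and 9.44 FPKM in SE21s, against 24.7, 36.9, 31.5, 33.3 and 32.3 FPKM in MH86 (log2 difference -2.01 ± 0.18 SE, adjusted p = 0.00012). ASN1 (LOC_Os03g18130), an asparagine synthetase, was listed at 0 in SE21s at ZT24 and ZT48 and at or under 0.841 FPKM at the other hours, against 16.2, 2.60, 19.5, 7.20 and 17.1 FPKM in MH86 (-3.83 ± 0.50, adjusted p = 0.00077).

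Among hormone genes, 5 of 7 type-A response regulators, which cytokinin induces, were higher in SE21s and none was lower, with a median log2 difference of 2.11. Among all genes 25.7% were higher and 34.4% lower. RR6 (LOC_Os04g57720) had 38.4, 28.4, 36.1, 46.99 and 59.6 FPKM in SE21s, against 6.84, 3.17, 5.60, 7.15 and 11.3 FPKM in MH86 (log2 difference 2.59 ± 0.11 SE, adjusted p = 4.2e-06). RR2 (LOC_Os02g35180) had 121 to 176 FPKM in SE21s, against 21.9 to 67.1 FPKM in MH86 (2.18 ± 0.19, adjusted p = 0.00012) and RR9 (LOC_Os11g04720) 55.4 to 220.0 FPKM in SE21s, against 14.3 to 33.98 FPKM in MH86 (2.11 ± 0.20, adjusted p = 0.00017), the last being a near-identical copy of RR10, so that the split between them is uncertain. All SE21s values of the 3 genes were above those of MH86.

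Of 5 gibberellin genes 3 were higher and 1 lower, against 25.7% and 34.4% of all genes, and 1 stood far from the rest. GA20ox1 (LOC_Os03g63970), an oxidase of gibberellin synthesis, had 67.3, 60.6, 66.5, 110.4 and 79.5 FPKM in SE21s, against 3.84, 2.29, 2.47, 1.94 and 1.67 FPKM in MH86 (log2 difference 4.73 ± 0.22 SE, adjusted p = 8.1e-06). The receptor gene GID1 (LOC_Os05g33730) was slightly lower (-0.36 ± 0.08, adjusted p = 0.0071). SD1 (LOC_Os01g66100), the second oxidase, had 1.13 to 3.96 FPKM in SE21s, against 0.729 to 1.75 FPKM in MH86 (0.82 ± 0.27, adjusted p = 0.034), a call that ended without ZT0, ZT24 or ZT48 (adjusted p = 0.085 to 0.0997). The SD1 call also ended by limma with no filter on low values (adjusted p = 0.066) and without the 3 most abundant loci (0.093). Without the 3 most abundant loci the counts were 1 higher and 1 lower.

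Genes of abscisic acid breakdown went both ways. ABA8ox1 (LOC_Os02g47470) had 13.3, 81.04, 13.1, 41.4 and 66.9 FPKM in SE21s, against 4.89, 8.19, 4.59, 26.4 and 49.997 FPKM in MH86 (log2 difference 1.41 ± 0.40 SE, adjusted p = 0.022), with wide swings inside each line, and its call ended without ZT0 or ZT24 (adjusted p = 0.056 to 0.057). ABA8ox2 (LOC_Os08g36860) was lower with 5.04 to 12.1 FPKM in SE21s, against 14.8 to 22.7 FPKM in MH86 (-1.39 ± 0.21, adjusted p = 0.0014), and ABA8ox3 (LOC_Os09g28390) was low in both lines (-0.95 ± 0.29, adjusted p = 0.025), with the call ended without ZT24 or ZT48 (adjusted p = 0.064 to 0.079). The ABA8ox3 call also ended by limma in quantile scaling (adjusted p = 0.059) and with no filter on low values (0.0503). The list had 1 of 4 genes higher and 2 lower, against 25.7% and 34.4% of all genes.

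Of 10 jasmonate genes 3 were higher and 3 lower, near the 25.7% and 34.4% of all genes. Without the 3 most abundant loci none was higher and 5 were lower. AOS2 (LOC_Os03g12500), allene oxide synthase, was at or under 0.427 FPKM in SE21s, against 1.66, 2.76, 2.21, 8.79 and 12.7 FPKM in MH86 (-2.99 ± 0.47, adjusted p = 0.0016). The repressor gene JAZ12 (LOC_Os10g25290) was lower (-1.67 ± 0.28, adjusted p = 0.0021), and MYC2 (LOC_Os10g42430), the factor it restrains, was higher (0.62 ± 0.13, adjusted p = 0.0055), a call that ended in that scaling (adjusted p = 0.07). In defence 5 of 7 genes were lower and none higher (median -1.45). PR10b (LOC_Os12g36850) had 1.09, 1.92, 1.34, 10.97 and 1.92 FPKM in SE21s, against 9.17, 23.4, 15.3, 30.1 and 29.6 FPKM in MH86 (log2 difference -2.81 ± 0.31 SE, adjusted p = 0.00032), PR1b (LOC_Os01g28450) was listed at 0 in 4 SE21s libraries and at 0.333 FPKM at ZT48, against 2.48, 4.77, 3.21, 18.5 and 11.1 FPKM in MH86 (-3.58 ± 0.37, adjusted p = 0.00025), and the salicylic acid co-receptor gene NPR1 (LOC_Os01g09800) had 3.53 to 5.70 FPKM in SE21s, against 9.48 to 22.995 FPKM in MH86 (-1.43 ± 0.25, adjusted p = 0.0026). PR10 genes are near-identical copies, so that their split is uncertain.

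Stress and transport lists were mixed, where 25.7% of all genes were higher and 34.4% lower. The heat shock list split evenly, with 2 higher and 2 lower among 4, or 1 and 2 without the 3 most abundant loci, with the factor gene HSFA2d (LOC_Os03g06630) higher at 111 to 195 FPKM in SE21s, against 22.02 to 95.9 FPKM in MH86 (1.64 ± 0.27, adjusted p = 0.0021), and HSFA2c (LOC_Os10g28340, -0.92) and HSP81-1 (LOC_Os08g39140, -1.09), a cytosolic HSP90, lower. In the DREB list of cold and drought factors, DREB1A (LOC_Os09g35030) was higher with 15.02, 44.3, 7.65, 18.5 and 25.1 FPKM in SE21s, against 5.29, 2.44, 3.12, 5.23 and 4.69 FPKM in MH86 (log2 difference 2.11 ± 0.39 SE, adjusted p = 0.0038). DREB2A (LOC_Os01g07120) was lower (-1.06 ± 0.17, adjusted p = 0.0018), as was DREB2B (LOC_Os05g27930, -0.46 ± 0.16, adjusted p = 0.038), which lost its call without ZT0, ZT24 or ZT45 (adjusted p = 0.066 to 0.075). The DREB2B call also ended by limma in median-ratio scaling (adjusted p = 0.053) and quantile scaling (0.056). It ended too with no filter on low values (0.073) and with no trended or robust prior (0.053).

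Antioxidant genes held 2 higher and 3 lower of 7, near the 25.7% and 34.4% of all genes. CATA (LOC_Os02g02400), a catalase, had 87.3 to 116 FPKM in SE21s, against 24.8 to 41.6 FPKM in MH86 (1.62 ± 0.18, adjusted p = 0.00028), and the chloroplast ascorbate peroxidase gene APX8 (LOC_Os02g34810) had 352 to 411 FPKM in SE21s, against 97.6 to 122 FPKM in MH86 (1.83 ± 0.10, adjusted p = 1.3e-05). The cytosolic APX1 (LOC_Os03g17690) was lower with 141 to 248 FPKM in SE21s, against 297 to 511 FPKM in MH86 (-1.28 ± 0.13, adjusted p = 0.00021). No overlap was seen in these 3 genes.

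Of 8 plasma membrane aquaporin genes 6 were higher and none lower (median 1.15), against 25.7% and 34.4% of all genes. Without the 3 most abundant loci 1 was called lower. PIP2;1 (LOC_Os07g26690) had 442, 232, 425, 218 and 453 FPKM in SE21s, against 174, 50.1, 129.5, 51.2 and 158 FPKM in MH86 (log2 difference 1.77 ± 0.15 SE, adjusted p = 8.3e-05). PIP1;1 (LOC_Os02g44630) and PIP2;7 (LOC_Os09g36930) were higher by 1.44 and 1.73, with overlapping groups. Phosphate status genes were 2 higher and 2 lower of 4, with SPX2 (LOC_Os02g10780, 1.003) and SPX1 (LOC_Os06g40120, 0.56) higher and SPX4 (LOC_Os03g61200, -0.81), a sensor that holds back phosphate starvation factors, lower. Without the time block Cga1 (adjusted p = 0.069), DREB2B (0.075), ABA8ox1 (0.14), GID1 (0.054) and SPX1 (0.084) missed the threshold in limma.

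Outside the lists, the genes of at least 4-fold and one direction at all hours with the smallest adjusted p were at over 100 FPKM in one line and at or under 3.33 FPKM in the other. LOC_Os11g47370 had 109 to 146 FPKM in SE21s, against 0 to 0.0568 FPKM in MH86 (7.99 ± 0.10, adjusted p = 2.1e-08) and LOC_Os12g18729 183 to 288 FPKM in SE21s, against 1.95 to 3.33 FPKM in MH86 (6.22 ± 0.07, adjusted p = 2.1e-08). On the other side, LOC_Os02g29500 had 0 to 0.0964 FPKM in SE21s, against 142 to 180.4 FPKM in MH86 (-8.27 ± 0.10, adjusted p = 2.1e-08) and LOC_Os12g39440 0 to 0.0893 FPKM in SE21s, against 135 to 155 FPKM in MH86 (-8.12 ± 0.09, adjusted p = 2.1e-08). At all 5 hours 45 genes were at 10 FPKM or more in SE21s and under 1 FPKM in MH86, and 68 genes the reverse.

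Whether a line difference was particular to dawn was tested in 1 model of all 34 libraries of these lines, as the dawn difference minus the mean of the differences in the morning (ZT3, ZT6, ZT27 and ZT30), afternoon (ZT9, ZT12, ZT33 and ZT36) and night (ZT15, ZT18, ZT39 and ZT42). By limma this change was called in 4134 genes (24.5%), 1785 more positive at dawn (10.6%) and 2349 more negative (13.9%). Without the time block 1594 genes passed, and without the 3 most abundant loci 24.7% of the calls were positive, against 43.2% on the deposited scale. In 2897 of these genes (70.1%) the difference had the same direction but was larger around dawn, in 232 (5.61%) it was smaller, and in 1005 (24.3%) it was opposite to that of the rest of the day. Over all genes those shares were 61.7%, 19.5% and 18.8%. Set against single windows, 3593 genes differed from the morning (21.3%; 1109 without the time block) and 2893 from the afternoon (17.2%; 967 without it), of which 1251 were more positive (7.43%) and 1642 more negative (9.75%). Without the 3 most abundant loci 29.8% of the afternoon calls were positive, against 43.2% on the deposited scale. Against the night 1534 genes differed (9.11%), 550 more positive (3.27%) and 984 more negative (5.84%), but it was 90 without the time block, 1008 with no filter on low values, 4070 when scaled without the 3 most abundant loci (9.31% positive, against 35.9%) and 931, 994, 860 and 885 when ZT0, ZT21, ZT24 or ZT48 was left out.

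Of the 29 lists, antenna genes had the largest median change toward SE21s around dawn, 3.34 against -0.03 over all genes. Their median log2 difference was 5.76 around dawn, 1.10 in the morning, 1.55 in the afternoon and 2.46 in the night, and 11 of 13 were more positive around dawn than in the rest of the day. At ZT3 and ZT27 the median antenna level was 6449 and 2814 FPKM in SE21s and 1182 and 1228 FPKM in MH86, whereas at ZT21 and ZT45 it was 358 and 212 FPKM in SE21s and 3.34 and 1.62 FPKM in MH86. LHCB2 differed by 7.15 around dawn and by 1.38, 1.85 and 0.89 in the morning, afternoon and night (change 5.78 ± 0.38, adjusted p = 2.6e-07). CAB1R differed by 5.95 around dawn and by 0.57, 0.87 and 2.35 in the other windows (change 4.69 ± 0.22, adjusted p = 5.4e-09).

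**Figure D4:**
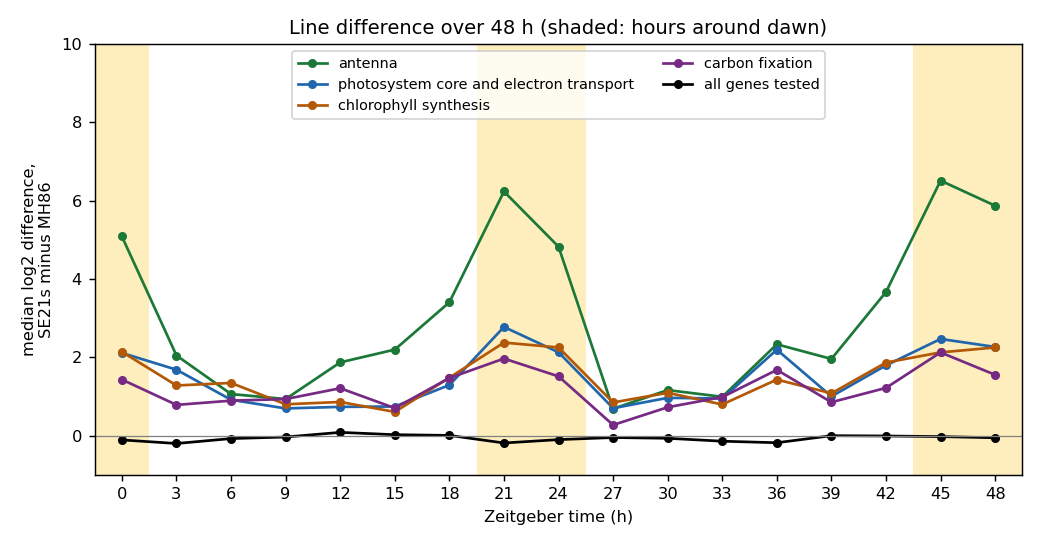
Median log2 difference (SE21s minus MH86, y axis) of 4 photosynthesis lists and of all genes tested at each of the 17 hours, with the hours around dawn shaded. The antenna median reaches 6.23 at ZT21 and 6.51 at ZT45 and is 0.68 at ZT27, while the median of all genes stays between -0.20 and 0.08.

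Other photosynthesis lists moved the same way by less. Over all genes 10.6% were more positive around dawn than in the rest of the day. More positive around dawn were 12 of 16 photosystem genes, such as PSAD (change 1.40 ± 0.25, adjusted p = 0.00098) and PSAE (LOC_Os07g25430, change 1.05 ± 0.20, adjusted p = 0.0018). So were 8 of 14 carbon fixation genes, such as PGK (change 1.18 ± 0.18, adjusted p = 0.00043) and RPE (LOC_Os03g07300, change 0.73 ± 0.14, adjusted p = 0.0019), and 9 of 13 chlorophyll synthesis genes, such as CHLI (LOC_Os03g36540, change 1.06 ± 0.16, adjusted p = 0.00029) and GUN4 (LOC_Os11g16550, change 1.39 ± 0.21, adjusted p = 0.00029), with 1 more negative. In these lists the line difference stayed positive in all 4 windows, at medians of 0.71 to 1.38 outside dawn. Against the night alone, 6 of 16 photosystem, 5 of 14 carbon fixation and 6 of 13 chlorophyll synthesis genes were more positive around dawn. So were 7 of 13 antenna genes and 3.27% of all genes. At ZT36 the photosystem and carbon fixation medians were 2.19 and 1.68. At ZT0, ZT24 and ZT48 they were 2.11 to 2.26 and 1.43 to 1.55, so their size there was not particular to dawn.

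Outside photosynthesis, the size or the side of the difference changed in single genes. PRR1 differed by -1.14 around dawn and by 0.43, -0.23 and -0.18 in the morning, afternoon and night (change -1.14 ± 0.14, adjusted p = 6.2e-05). ELF3-2 differed by -3.65 around dawn and by -0.91, -0.43 and -1.05 in those windows (change -2.85 ± 0.31, adjusted p = 3.2e-05), and Ehd1 by -3.45 around dawn and by -1.07, 0.001 and -0.20 in them (change -3.02 ± 0.31, adjusted p = 1.8e-05). The CONSTANS homologue Hd1 (LOC_Os06g16370) was lower around dawn (-0.39) with positive differences of 0.83, 1.05 and 0.31 elsewhere (change -1.12 ± 0.17, adjusted p = 0.00038). ABA8ox1 was on the other side in the morning and afternoon, with a difference of 1.41 around dawn and -1.44, -1.56 and 0.05 in the 3 windows (change 2.39 ± 0.37, adjusted p = 0.00038). CATA differed by 1.62 around dawn and by -0.32, -0.41 and 1.18 in the 3 windows (change 1.47 ± 0.23, adjusted p = 0.00045). The aquaporin gene PIP2;4 (LOC_Os07g26630) differed by 0.69 around dawn and by -1.07, -1.73 and -0.28 in the 3 windows (change 1.72 ± 0.30, adjusted p = 0.001). WRKY45 (LOC_Os05g25770), a factor of salicylic acid defence, was at -0.10 around dawn, which was not called, and at 1.10, 1.77 and 1.56 in the other windows (change -1.58 ± 0.34, adjusted p = 0.0035). Without the time block PRR1 (adjusted p = 0.33), Hd1 (0.16) and ABA8ox1 (0.057) lost this call. Against the night alone no aquaporin or abscisic acid gene was called, so the changes of PIP2;4 and ABA8ox1 were not called against it.

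By contrast the type-A response regulators differed at all hours. Their list medians were 2.11 around dawn, 2.71 in the morning, 2.64 in the afternoon and 2.09 in the night. GA20ox1 gave no call against the rest of the day (change 0.53 ± 0.35, adjusted p = 0.28), which averages the other 3 windows. Its difference was still smaller in the morning than around dawn. At ZT3, ZT6, ZT27 and ZT30 the highest difference of any gibberellin gene tested was 2.09, 3.14, 2.91 and 2.97. Around dawn GA20ox1 held the highest, from 3.96 at ZT0 to 5.51 at ZT45. In the afternoon and night hours the highest of the list was 3.12 to 5.93. RCCR1 had a negative difference in every window, -1.997 around dawn and -0.87, -1.01 and -1.41 in the other 3 (change -0.90 ± 0.23, adjusted p = 0.01). NYC1 differed by -1.003 around dawn and by -0.14, 0.25 and -0.16 in the other 3 windows (change -0.98 ± 0.14, adjusted p = 0.00026). The second-step enzyme gene of plastid isoprenoids DXR (LOC_Os01g01710; change 0.65 ± 0.17, adjusted p = 0.012) and the cytosolic glutamine synthetase gene GS1;1 (LOC_Os02g50240; change 1.37 ± 0.30, adjusted p = 0.0037) changed toward SE21s around dawn. The starch breakdown gene DPE2 (LOC_Os07g46790), a glucanotransferase of the cytosol, changed the other way (change -0.90 ± 0.21, adjusted p = 0.0056), as did the response regulators RR1 (LOC_Os04g36070; change -0.93 ± 0.27, adjusted p = 0.021) and RR4 (LOC_Os01g72330; change -1.21 ± 0.38, adjusted p = 0.028). The jasmonate repressor gene JAZ7 (LOC_Os07g42370) changed toward SE21s by less (change 0.64 ± 0.20, adjusted p = 0.029). Without the time block DXR (adjusted p = 0.078), GS1;1 (0.12), RR1 (0.073) and JAZ7 (0.23) lost this call, as DXR did in quantile scaling (0.065). With no filter on low values JAZ7 (0.055) and RR4 (0.057) lost it by limma, as JAZ7 did without the 3 most abundant loci (0.069). Against the night alone no carotenoid, nitrogen or jasmonate gene was called, and no type-A response regulator was more negative. The changes given here for DXR, GS1;1, JAZ7, RR1 and RR4 were thus not called against the night.

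Calls of 8 named genes in the comparison with the rest of the day ended when 1 hour was left out (GS2, PR1b, JAZ7, AOS2, ABA8ox2, RR1, RR4 and SPX4), with adjusted p up to 0.16.

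Within the dawn hours, the mean line difference at ZT21 and ZT45 was set against that at ZT0, ZT24 and ZT48. By limma 166 genes differed (0.986%), 148 of them more positive at ZT21 and ZT45 (0.879%) and 18 more negative (0.107%), and 1779 had an unadjusted p under 0.05. The number rests on few libraries: it was 61 without ZT0, 32 without ZT24 and 28 without ZT48, 105 without the time block, 50 with no filter, 71 with neither trend nor robust option in the prior and 109 without the 3 most abundant loci. Of the 148, SE21s was higher than MH86 at both sets of hours in 108, higher at ZT21 and ZT45 and lower at the other hours in 25, and lower at both in 15.

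Of the list members called, LHY had the smallest adjusted p, with a log2 difference of 4.59 at ZT21 and ZT45 and 1.10 at ZT0, ZT24 and ZT48 (change 3.49 ± 0.26, adjusted p = 0.0068). PSY2 (LOC_Os12g43130), the second phytoene synthase, had 247, 284, 194, 219 and 304 FPKM in SE21s, against 80.5, 4.28, 63.8, 6.72 and 89.3 FPKM in MH86. MH86 was low at ZT21 and ZT45, and SE21s was not (change 3.75 ± 0.29, adjusted p = 0.007). GBSSII (LOC_Os07g22930), the granule-bound starch synthase of leaves, had 245, 137, 232, 211 and 337 FPKM in SE21s, against 35.1, 2.08, 21.8, 2.68 and 32.1 FPKM in MH86 (change 2.72 ± 0.24, adjusted p = 0.009). CAO1 (LOC_Os10g41780), which makes chlorophyll b, had 614, 373, 551, 536 and 705 FPKM in SE21s, against 356, 44.6, 293, 49.9 and 367 FPKM in MH86 (change 2.35 ± 0.18, adjusted p = 0.007).

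The photosystem I genes LHCA3 (LOC_Os02g10390; change 3.01 ± 0.29, adjusted p = 0.012), PSAK (LOC_Os07g05480; change 2.43 ± 0.26, adjusted p = 0.018) and PSAO (LOC_Os04g33830; change 2.26 ± 0.26, adjusted p = 0.022) also had a more positive difference at ZT21 and ZT45, as did the photosystem II antenna gene LHCB3 (LOC_Os07g37550; change 1.63 ± 0.16, adjusted p = 0.012). LHCA3 had 3878, 913, 2978, 1186 and 3791 FPKM in SE21s, against 538, 13.8, 311, 12.5 and 304 FPKM in MH86, so that both lines were lower at ZT21 and ZT45 than at the other hours. LHCB2, chosen after its values were seen, was the 1 list member that changed the other way (6.10 at ZT21 and ZT45 and 7.85 at ZT0, ZT24 and ZT48; change -1.75 ± 0.23, adjusted p = 0.031). GLK1 was called at the edge of the threshold (change 1.18 ± 0.18, adjusted p = 0.0496). ELF3-2 was lower in SE21s at both sets of hours but nearer to MH86 at ZT21 and ZT45 (-2.52 at ZT21 and ZT45 and -4.39 at ZT0, ZT24 and ZT48; change 1.87 ± 0.18, adjusted p = 0.012). Of the 10 genes other than LHCB2, LHY and PSY2 kept the call without each hour in turn, and the other 8 lost it without at least 1, with adjusted p of 0.0504 to 0.22. Without the time block LHCB3 (adjusted p = 0.68), PSAO (0.37), GLK1 (0.086) and ELF3-2 (0.057) missed the threshold in limma. With no filter on low values 7 of the 10 missed it (0.053 to 0.11), and LHCB3 did so with a pseudocount of 1 (0.068).

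**Figure D5:**
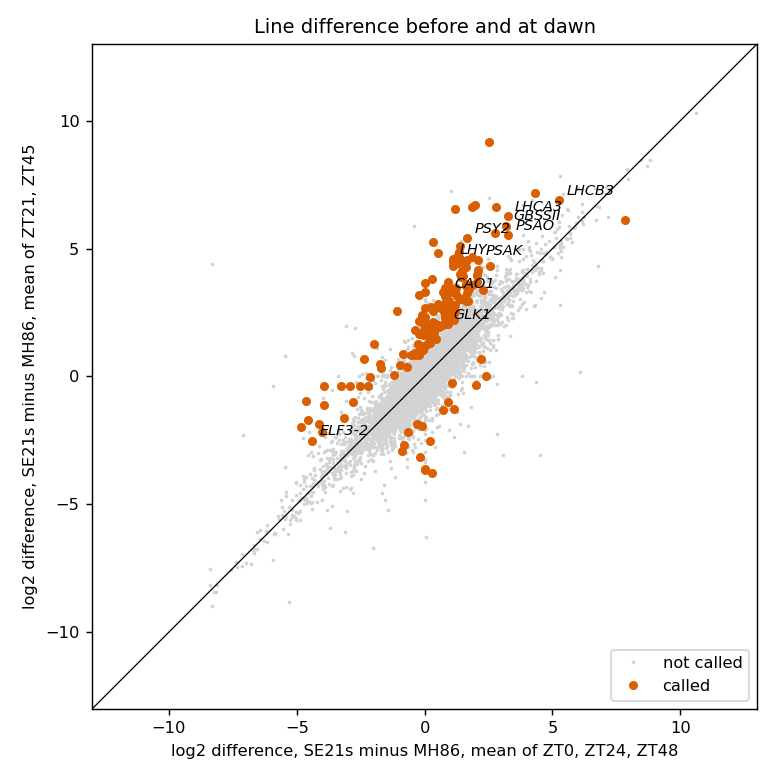
Log2 difference (SE21s minus MH86) of each tested gene as the mean of ZT21 and ZT45 (y axis) against the mean of ZT0, ZT24 and ZT48 (x axis); orange points are the 166 genes whose 2 values differed by limma, and the line marks equal values. LHY lies at 4.59 on the y axis and 1.10 on the x axis, and 148 of the 166 points lie above the line.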

How the data were processed

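Total RNA of flag leaves went into stranded sequencing libraries, per the labels' protocols, and the authors deposited 1 table of FPKM values for 34653 loci in 51 libraries; TopHat2 and Cuffdiff are named per the submitters' processing notes, with versions, genome build and annotation not given in the sources used here. FPKM is scaled by the authors to fragment totals and gene length, so a few very abundant loci can shift all other values of a library, and copies of a gene can share fragments. The table holds no counts and the depth is unknown, so no counting interval is given.

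Values were taken as log2(FPKM + 0.5), and 16842 genes were tested, those whose FPKM averaged 1 or more over the 51 libraries. A fold on this scale understates the change of low genes. The main fit used limma 3.58.1 in R 4.3.3 on the 10 libraries, with the hour as a block. The variance prior was robust and followed a trend, tests were two-sided, and p-values were adjusted by Benjamini-Hochberg over all genes tested, with a threshold of 0.05. Line differences in 4 windows were fitted in the same way over 34 libraries. Deviations from the line means correlated between same-hour libraries at 0.384, 0.377, 0.292, 0.336 and 0.423, each the highest with its own hour, so the hours pair the libraries. An exact permutation test over 5 pairs cannot go below p = 0.0625, so no single-gene permutation test was run. On simulated data of 16842 genes, the main fit recovered 64 of 100 genes changed by 1 log2 unit and 95 of 100 changed by 2 units. Beside these calls 12 were false. No other gene was changed, and noise was drawn independently for each gene and library, whereas 60.0% of genes were called in the real data. The rate of false calls in the real data thus cannot be read from this simulation.

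The members and gene lists were chosen with earlier results of these data known. Named are every clock gene tested, up to 3 genes per other list with the smallest adjusted p, 2 genes in each direction outside the lists with at least 4-fold difference and one direction at all hours, and up to 2 called genes per list in the other 2 kinds of comparison. Gene symbols come from general knowledge: of 273 symbols 156 are in a RefSeq gene table of another assembly, 151 with an entry on the chromosome of the locus identifier, and none of the 34653 identifiers is in it, so no coordinates are printed. An exact 0 between high values, found 114 times in 71 genes over the 10 libraries, may be a failed estimate. Alternatives were the block, the pseudocount, the filter, 3 other scalings, the variance prior, zeros set missing and each hour left out. Python 3.11.15 with pandas 2.3.3, numpy 2.4.6, scipy 1.17.1 and matplotlib 3.10.9 made the summaries and figures.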

Additional observations from a re-analysis of the deposited data

Results flagged for a closer look

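In 10 of 192 groups of 5 libraries examined, 1 library stood apart from the other 4 by more than Dixon's limit, and chance alone gives about 1 in 20. Among SE21s libraries, ZT21 stood apart in PRR59 (14.4 FPKM), DREB2A (3.36 FPKM), SPX2 (44.97 FPKM) and MADS3 (0.410 FPKM). The SE21s library of ZT45 stood apart in PHYC (33.8 FPKM) and PR10b (11.0 FPKM), that of ZT0 in AOS2 (0.427 FPKM) and APX1 (248 FPKM), and that of ZT48 in PR1b (0.333 FPKM, with 0 listed at the other 4 hours). Among MH86 libraries, ZT48 stood apart in the ZTL-like gene LOC_Os06g47890 (128 FPKM). These hours differ in time as well as in library, and the part of each was not tested.

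The line difference itself differed between sets of hours by limma at an adjusted p under 0.05. It did so in 4134 genes between dawn and the rest of the day, in 3593 between dawn and the morning, in 2893 between dawn and the afternoon and in 1534 between dawn and the night. Between ZT21 with ZT45 and the other 3 hours it did so in 166 genes.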

How the results depend on the processing

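Of the 10110 genes called around dawn, counts stayed within 1.5 times in 17 of 18 other settings, with 5048 called from ZT21 and ZT45 alone. With 1 hour left out, 8670 to 9582 genes were called, and 7799 without the time block, which pairs the libraries. Median-ratio scaling gave 49.6% and quantile scaling 45.5% of calls higher in SE21s, against 42.8%. Without the block the change against the rest of the day was called in 1594 genes, against the morning in 1109, against the afternoon in 967, against the night in 90, and between ZT21 with ZT45 and the other hours in 105. Ranges with 1 hour left out were 3058 to 3731 genes for the rest of the day, 2883 to 3234 for the morning, 2161 to 2765 for the afternoon, 860 to 1601 for the night and 28 to 184 between ZT21 with ZT45 and the other hours. With no filter the last 2 gave 1008 and 50 genes, without the 3 most abundant loci 4070 and 109, and the last gave 71 with no trended or robust prior. The cause was not tested in these cases. Of 96 genes named around dawn, 74 had no change of call and 19 lost theirs in at least 1 setting, against 20 of 44 named in the change from the rest of the day and 8 of 10 in that between ZT21 with ZT45 and the other hours. None of these genes reversed, but RCA, chosen after its values were seen, did so from -3.24 to 3.56 when 2 doubtful zeros were set missing. Over all named genes and settings 2372 results kept their side of the threshold, 154 fell short of it and 5 newly passed. The unknown depth and 1 library per line and hour limit all values, and no separate error exists for a single hour.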

Other observations

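Genes whose level climbs before dawn in the hybrid LY2186, whose libraries are in neither group, were followed in the parents. This was chosen after seeing the data and is a description with no test. The 718 genes at least 2-fold higher in LY2186 at ZT24 than at ZT21 and at ZT48 than at ZT45 had a median log2 difference between SE21s and MH86 of 1.63 at ZT21 and ZT45 and 0.88 at ZT0, ZT24 and ZT48, and 522 of them (72.7%) were called higher in SE21s and 48 (6.69%) lower. Over all genes the medians were -0.12 and -0.10, with 25.7% called higher and 34.4% lower. Over the 3 h steps their median log2 rise was 0.56 and 0.73 in SE21s, and 1.28 and 1.49 in MH86. The 539 genes at least 2-fold lower in LY2186 after those steps had medians of -0.79 and -0.61, with 52 called higher and 319 called lower (59.2%). Of the 166 genes whose line difference changed between ZT21 with ZT45 and the other hours, 116 (69.9%) were among the 718, of which they are 16.2%. The 718 are 4.26% of all genes tested.

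The SE21s library of ZT21 was 1.32 from the MH86 library of ZT24 in root mean square log2 difference, and that of ZT45 was 1.22 from the MH86 library of ZT48. Compared at the same hour, the distances were 1.36 at ZT21 and 1.29 at ZT45. The reverse pairs, MH86 at ZT21 or ZT45 with SE21s 3 h later, were not measured, and a shift in time between the lines was not tested.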
